A study of Mus musculus with 7 samples.

Results

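The collagen genes were taken as every measured gene with a symbol made of Col, a number, the letter a and a second number. They numbered 42 of the 17096 genes with a probe set of a single gene symbol, and the brightest probe set by mean log2 intensity stood for each gene. Col6a6 and Col28a1, the remaining 2 of 44 collagen genes in the gene table, were not analysed here. The cells were sorted from mouse mammary gland and their RNA read on Affymetrix arrays. Adult luminal cells came from K8CREERT2/RosaYFP mice (2 arrays) and adult basal cells from K5CREERT2/RosaYFP mice (2 arrays), sorted as YFP+ cells 8 weeks after tamoxifen. Embryonic cells came from Lgr5-IRES-GFP female embryos at embryonic day 14 and were CD49fHi Lgr5Hi (3 arrays of 2000, 2000 and 813 cells), each array from the pooled females of a litter. The adult cells thus derive from cells in which a keratin 8 or keratin 5 promoter had driven Cre, and the labels give no age for the adult mice and mark their arrays as a reanalysis, while their tissue field names embryonic gland. Nothing in the labels says that adult replicates were separate animals, so p-values measure the spread between these arrays, which may be technical.

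Collagens are secreted or membrane-bound proteins whose chains wind into a helix of repeated glycine triplets, and they are grouped by what they build. Fibrillar collagens form the banded fibrils of stroma, network collagens form sheets such as the type IV meshwork of basement membrane, and transmembrane collagens are anchored in the cell surface. Others bind the surface of fibrils (the FACIT collagens), form beaded filaments or anchoring fibrils, or sit in the basement membrane zone (the multiplexins). In the mammary gland the basal, myoepithelial layer touches the basement membrane and the luminal layer faces the duct, while fibroblasts make most of the stromal fibrils.

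The adult arrays carried the markers of their labels. Basal markers were lower in luminal cells in 7 of 7 cases, for example Krt5 at 9.13 and 9.56 in luminal cells, against 12.03 and 12.15 in basal cells, and 7 of 10 luminal markers were higher in luminal cells, among them Foxa1 at 7.28 and 7.21 in luminal cells, against 4.31 and 4.76 in basal cells. Krt8, whose promoter drove Cre in the luminal line, stood at 11.05 and 11.03 in luminal cells, against 10.69 and 10.59 in basal cells. Its difference of 0.40 did not reach the thresholds given below, nor did Krt18 (0.68) and Epcam (0.39). Each had both luminal arrays above both basal arrays. Values here are log2 intensities of 1 probe set, which do not compare levels between genes. A background level of 6.11, an intensity of 69.2, was taken from 135 probe sets for 102 genes known from unrelated organs. The median log2 intensity over all probe sets was 5.05 to 5.08 on the 7 arrays. Of the 42 collagens, 25 lay above background by their mean in an adult lineage. The embryonic columns tied exactly between replicates 1 and 2 for 36.1% of genes (9 of 42 collagens), and the embryonic mean differed from the adult mean with an SD of only 0.09 across probe sets, where luminal and basal means differed with one of 0.49. Comparisons with the embryonic columns carry that limit.

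The collagens that passed the test were all lower in luminal than in basal cells. Of the 42 collagens, 19 (45.2%) were lower in luminal cells and 0 were higher, by at least 2-fold with an adjusted p under 0.05 over all genes in limma. Over all genes, 3.24% were called lower in luminal cells and 3.57% higher. Both luminal arrays lay under both basal arrays for 28 collagens (66.7%, against 25.3% of all genes) and over them for 3 (7.14%, against 33.9%). The median difference, luminal minus basal, was -0.95 on the log2 scale over the 42 collagens, against 0.02 over all genes. The fold difference of the 19 ran from 2.16 to 11.3, and 6 differed at least 4-fold: Col14a1, Col17a1, Col4a2, Col5a2, Col7a1 and Col16a1. In all 19 the difference between lineages was larger than the gap between arrays within either lineage. With 2 arrays per lineage the call itself requires this, so it adds no support. In RNA of a sorted population, fewer cells that express a gene and less of its RNA per cell cannot be told apart. The count was 14 without luminal replicate 1, where Col9a1, Col9a2, Col12a1, Col15a1 and Col18a1 no longer passed.

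**Figure D1:**
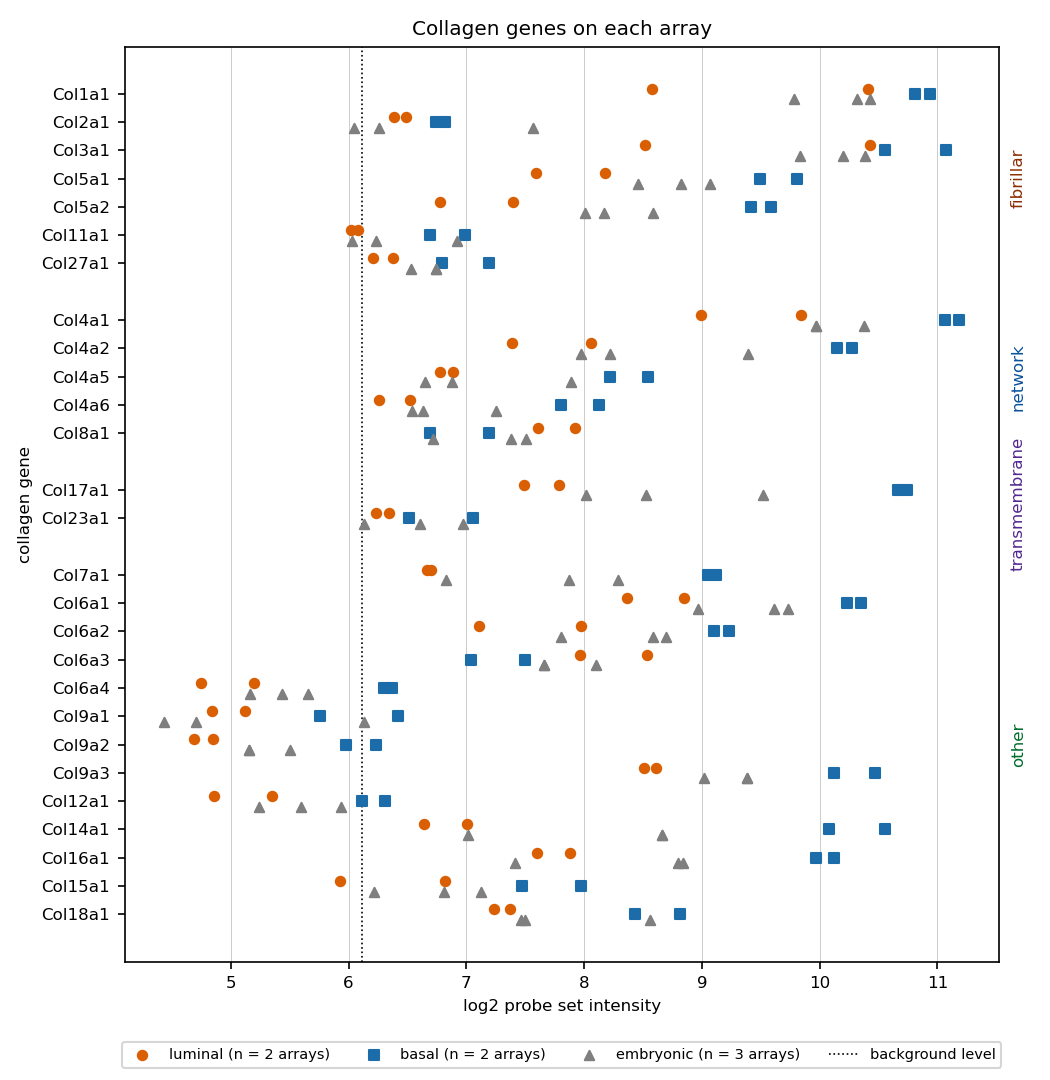
Log2 probe set intensity (x axis) of the 27 collagen genes that changed or lay above the background level, by class (y axis), with a point for each array of luminal (circles), basal (squares) and embryonic cells (triangles). The dotted line is the background level of 6.11. For all genes shown except Col6a3 and Col8a1, both luminal points lie to the left of both basal points.

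**Figure D2:**
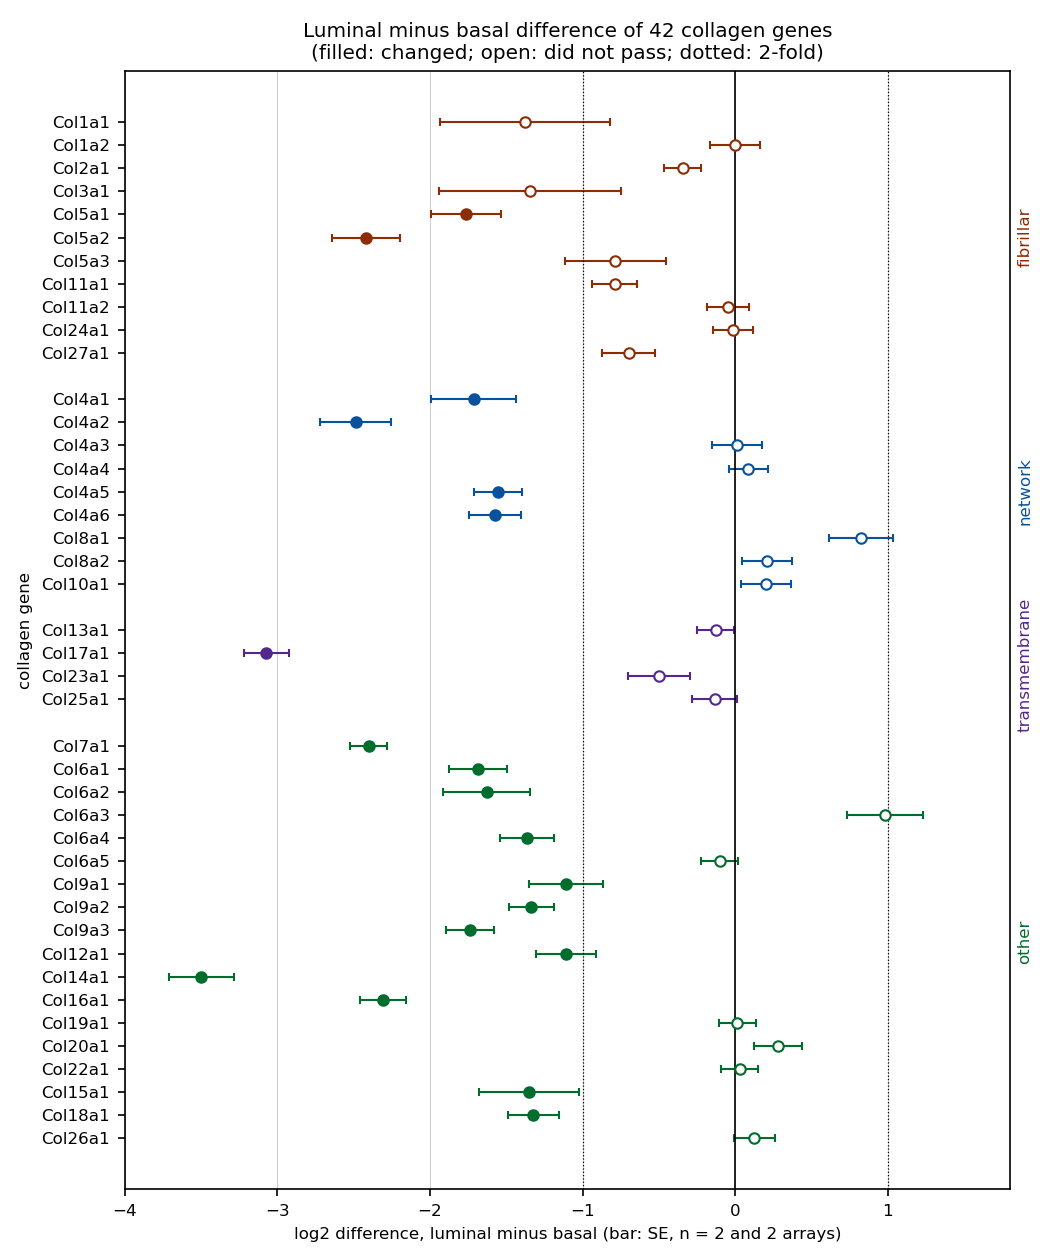
Log2 difference, luminal minus basal, with its SE (x axis) for the 42 collagen genes by class (y axis). Filled points are the 19 genes that changed, all on the negative side, which means lower in luminal cells. The widest bars belong to Col1a1 and Col3a1, and dotted lines mark a 2-fold difference.

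Among the epithelial attachment collagens the difference was large and the replicates lay close. Col17a1, the transmembrane collagen of hemidesmosomes, stood at 7.49 and 7.78 in luminal cells, against 10.75 and 10.67 in basal cells. It was 8.4-fold lower in luminal cells, a difference of -3.07 ± 0.15 (SE, n = 2 and 2 arrays, adjusted p = 0.00169). Col7a1, which forms the anchoring fibrils that tie basement membrane to stroma, stood at 6.70 and 6.67 in luminal cells, against 9.05 and 9.12 in basal cells, a difference of -2.40 ± 0.12 (adjusted p = 0.00169). Leaving out any 1 adult array left the difference between -3.22 and -2.92 for Col17a1 and between -2.44 and -2.37 for Col7a1. The other transmembrane collagens did not pass. Col23a1 stood at 6.23 and 6.34 in luminal cells, against 6.51 and 7.05 in basal cells, a difference of -0.50 ± 0.20 (adjusted p = 0.155), and Col13a1 (-0.13) and Col25a1 (-0.13) lay below background in both lineages. Transmembrane collagens thus counted 1 of 4 called, with a median of -0.32.

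The promoter windows of these 2 attachment collagens are shown because both genes serve epithelial attachment and differed at least 4-fold. They are RefSeq sequences of build GRCm38.p6, 300 bases around a gene's start. Col17a1 lies at chr19:47691993-47692292, minus strand, and Col7a1 at chr9:108953336-108953635, plus strand. Capitals mark matches on either strand to the TATA box letters TATAAA, the CCAAT box letters CCAAT, the GC box letters GGGCGG and the AP-1 letters TGANTCA, in which N is any base.
Col17a1: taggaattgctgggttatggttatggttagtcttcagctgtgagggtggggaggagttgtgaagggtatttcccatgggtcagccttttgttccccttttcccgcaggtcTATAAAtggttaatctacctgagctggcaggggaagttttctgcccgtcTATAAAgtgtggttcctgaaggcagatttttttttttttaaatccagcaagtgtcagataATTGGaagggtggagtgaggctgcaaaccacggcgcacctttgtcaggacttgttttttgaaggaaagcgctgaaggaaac
Col7a1: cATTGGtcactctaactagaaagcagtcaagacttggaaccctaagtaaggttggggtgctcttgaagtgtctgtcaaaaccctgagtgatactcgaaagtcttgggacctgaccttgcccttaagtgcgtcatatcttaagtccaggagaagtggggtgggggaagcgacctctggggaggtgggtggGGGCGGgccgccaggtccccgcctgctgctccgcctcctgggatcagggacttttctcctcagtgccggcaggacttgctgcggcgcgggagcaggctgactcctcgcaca
The Col17a1 window held 2 TATA boxes and 1 CCAAT box and no GC box, and the Col7a1 window 1 CCAAT box and 1 GC box. Among all 32851 promoter windows, 13.6% held the TATA box, 37.4% the CCAAT box, 35.7% the GC box and 7.81% the AP-1 letters. These letters are matches only, not tested binding sites.

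The type IV genes split between pairs. Col4a1 and Col4a2, whose chains assemble together in most basement membranes, were both lower in luminal cells. Col4a1 stood at 8.99 and 9.84 in luminal cells, against 11.07 and 11.19 in basal cells (-1.71 ± 0.28, adjusted p = 0.0156), and Col4a2 at 7.39 and 8.06 in luminal cells, against 10.15 and 10.27 in basal cells (-2.49 ± 0.23, adjusted p = 0.00429). In both genes luminal replicate 2 was the higher of the luminal arrays, and all luminal values lay under all basal values. Col4a5 and Col4a6, whose chains also assemble together, were lower in luminal cells by similar amounts. Col4a5 stood at 6.77 and 6.88 in luminal cells, against 8.22 and 8.55 in basal cells (-1.55 ± 0.15, adjusted p = 0.00489) and Col4a6 at 6.52 and 6.26 in luminal cells, against 7.80 and 8.13 in basal cells (-1.57 ± 0.17, adjusted p = 0.00584). Col4a3 (0.01 ± 0.16) and Col4a4 (0.09 ± 0.13), whose chains join that of Col4a5 in kidney basement membrane, lay below background on every array. Small differences of such genes do not show equal expression.

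Col4a1 and Col4a2 are neighbours that start in opposite directions, and their promoter windows are shown because the windows overlap and the genes differed in the same direction. The windows, Col4a1 at chr8:11312777-11313076, minus strand, and Col4a2 at chr8:11312555-11312854, plus strand, share 78 bases, chr8:11312777-11312854. Each is printed on its own strand, with capitals for the same motifs as above.
Col4a1: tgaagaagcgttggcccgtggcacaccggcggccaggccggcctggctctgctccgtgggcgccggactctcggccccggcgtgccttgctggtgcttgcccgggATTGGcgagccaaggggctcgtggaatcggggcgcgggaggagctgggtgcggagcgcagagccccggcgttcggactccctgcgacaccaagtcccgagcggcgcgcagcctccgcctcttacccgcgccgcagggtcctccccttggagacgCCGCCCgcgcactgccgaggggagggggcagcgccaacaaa
Col4a2: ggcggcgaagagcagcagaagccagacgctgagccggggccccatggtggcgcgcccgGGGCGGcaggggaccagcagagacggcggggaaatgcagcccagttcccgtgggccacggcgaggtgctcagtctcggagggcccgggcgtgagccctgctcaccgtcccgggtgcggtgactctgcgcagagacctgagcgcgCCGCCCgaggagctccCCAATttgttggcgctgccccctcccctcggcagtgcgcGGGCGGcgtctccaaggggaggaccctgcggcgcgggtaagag
The Col4a1 window held 1 CCAAT box and 1 GC box, and the Col4a2 window 1 CCAAT box and 3 GC boxes. The windows of Col4a5 and Col4a6 on chromosome X also face away from each other and lie 842 bases apart. Of 18 windows of 15 collagens lower in luminal cells, 12 (66.7%) held the GC box, 9 (50.0%) the CCAAT box, 1 (5.56%) the TATA box and 1 (5.56%) the AP-1 letters. In the 18 windows of 18 other collagens these were 10 (55.6%), 4 (22.2%), 4 (22.2%) and 0. Collagens with no entry in the promoter table, such as Col14a1 and Col5a2, are not in these counts.

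Of the other network collagens, Col8a1, a short-chain collagen of vessel walls and the cornea, had both luminal arrays above both basal arrays. It stood at 7.61 and 7.92 in luminal cells, against 6.69 and 7.19 in basal cells, a difference of 0.82 ± 0.21 that did not pass (adjusted p = 0.0504). Its 2 other probe sets, tested by themselves, gave 1.33 (adjusted p = 0.0203) and, below background in both lineages, 1.59 (adjusted p = 0.00626), both higher in luminal cells. The mean of its probe sets was higher in luminal cells too, at 1.25 (adjusted p = 0.0126), and without basal replicate 2 the first probe set passed as well, at 1.07 (adjusted p = 0.0124). The call of this gene thus depends on the probe set and on that array. Col8a2 (0.21) and Col10a1 (0.20), a gene of growth plate cartilage, lay below background. Network collagens thus counted 4 of 9 called, all type IV, with a class median of 0.01.

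The FACIT collagens held the largest difference of the family. Col14a1, which coats fibrils and is known for its place in dense connective tissue, stood at 6.64 and 7.005 in luminal cells, against 10.08 and 10.56 in basal cells. It was 11.3-fold lower in luminal cells (-3.50 ± 0.21, adjusted p = 0.00247). All 3 of its probe sets were called, with differences of -4.25, -3.50 and -3.05. Col16a1, a FACIT collagen found near basement membranes, stood at 7.60 and 7.88 in luminal cells, against 9.97 and 10.12 in basal cells (-2.31 ± 0.15, adjusted p = 0.00247). In both genes the lineages were far apart on all 4 arrays.

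The chains of type IX collagen, a FACIT best known from the surface of cartilage fibrils, were all lower in luminal cells. Col9a3 stood at 8.61 and 8.51 in luminal cells, against 10.12 and 10.47 in basal cells (-1.74 ± 0.16, adjusted p = 0.00414), and its second probe set gave -1.58. Col9a2 stood at 4.68 and 4.85 in luminal cells, against 5.98 and 6.23 in basal cells (-1.34 ± 0.15, adjusted p = 0.00595). Col9a1 stood at 4.84 and 5.12 in luminal cells, against 5.76 and 6.42 in basal cells (-1.11 ± 0.24, adjusted p = 0.033). The means of Col9a1 and Col9a2 lay below background in both lineages, at 4.98 and 4.77 in luminal and 6.09 and 6.10 in basal cells, so those sizes are not exact. Col9a1 did not pass when luminal replicate 1 (-0.97), luminal replicate 2 (-1.25) or basal replicate 2 (-0.78) was left out, or as the mean of its probe sets (-0.69). Col9a2 did not pass when luminal replicate 1 was left out (-1.25). Col12a1, a FACIT of tendon and fascia, was lower in luminal cells (-1.11 ± 0.20, adjusted p = 0.0192), with a luminal mean of 5.10 below background, and did not pass when luminal replicate 1 was left out (-0.86). Col19a1 (0.01), Col20a1 (0.28) and Col22a1 (0.03) lay below background. FACIT collagens counted 6 of 9 called, with a median of -1.11.

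The chains of type VI collagen, which builds beaded filaments around cells, did not all differ in 1 direction. Col6a1 stood at 8.36 and 8.85 in luminal cells, against 10.23 and 10.35 in basal cells (-1.68 ± 0.19, adjusted p = 0.00638). Col6a2 stood at 7.11 and 7.98 in luminal cells, against 9.11 and 9.23 in basal cells (-1.63 ± 0.28, adjusted p = 0.0188), and its second probe set gave -1.42 and did not pass (adjusted p = 0.0825). Col6a3, whose chain assembles with those of Col6a1 and Col6a2, ran the other way at 7.96 and 8.54 in luminal cells, against 7.04 and 7.50 in basal cells. Its difference of 0.98 ± 0.25 (adjusted p = 0.0488) was 1.98-fold and so missed the 2-fold minimum. Without basal replicate 2 it was higher in luminal cells at 1.21 (adjusted p = 0.0204). Col6a1 and Col6a2 are neighbours on the genome and Col6a3 lies on another chromosome. Col6a4, a related chain, was lower in luminal cells (-1.37 ± 0.18, adjusted p = 0.00895), with a luminal mean of 4.97 below background, and Col6a5 (-0.10) lay below background on every array. The second probe set of Col6a4, below background in both lineages, gave -0.87 and did not pass. The beaded filament genes counted 3 of 5 called.

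Both multiplexins were lower in luminal cells. Col15a1, found where basement membrane meets stroma, stood at 5.92 and 6.82 in luminal cells, against 7.47 and 7.97 in basal cells (-1.35 ± 0.32, adjusted p = 0.0432). Col18a1, the source of the fragment endostatin, stood at 7.37 and 7.24 in luminal cells, against 8.82 and 8.43 in basal cells (-1.32 ± 0.17, adjusted p = 0.00854), and its second probe set gave -1.57. Leaving out luminal replicate 1 ended both calls (-0.90 for Col15a1 and -1.39 for Col18a1). Leaving out luminal replicate 2 ended that of Col18a1 (-1.26), and leaving out basal replicate 2 that of Col15a1 (-1.10). Col26a1, which was put in none of these structural groups, had a difference of 0.13, with both adult means below background. Collagens other than fibrillar, network and transmembrane types counted 12 of 18 called, with a median of -1.33.

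Of the 11 fibrillar collagens, 2 were called. Col5a1 and Col5a2, whose chains assemble together and nucleate fibrils, were both lower in luminal cells. Col5a2 stood at 6.78 and 7.39 in luminal cells, against 9.59 and 9.42 in basal cells (-2.42 ± 0.22, adjusted p = 0.00416), and Col5a1 at 7.59 and 8.18 in luminal cells, against 9.50 and 9.80 in basal cells (-1.76 ± 0.23, adjusted p = 0.0089), with all 3 probe sets of Col5a1 called. The second probe set of Col5a2, below background in both lineages, gave -0.41 and did not pass. Of 11 changed collagens of any class with several probe sets, 7 had every probe set called. Col1a1 and Col3a1, the major fibril genes of stroma, did not pass. Col1a1 stood at 8.58 and 10.41 in luminal cells, against 10.81 and 10.93 in basal cells (-1.38 ± 0.56, adjusted p = 0.157). Col3a1 stood at 8.51 and 10.43 in luminal cells, against 10.56 and 11.08 in basal cells (-1.34 ± 0.60, adjusted p = 0.194). In both, luminal replicate 1 lay far below the other 3 adult arrays and luminal replicate 2 lay nearer to the basal arrays than to luminal replicate 1. Without luminal replicate 2 both passed, at -2.29 (adjusted p = 0.0172) for Col1a1 and -2.30 (adjusted p = 0.0272) for Col3a1, while without luminal replicate 1 the differences were -0.46 and -0.39.

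Col5a2 and Col3a1 are neighbours on the genome, and Col5a2 passed while Col3a1 did not, a contrast that was not tested. Col1a2, whose chain assembles with that of Col1a1, lay below background on every array with a difference of 0.00, so its single probe set gave no reading of the lineages. Col11a1, a chain of cartilage fibrils, stood at 6.08 and 6.02 in luminal cells, against 6.69 and 6.99 in basal cells, a difference of -0.79 ± 0.15 (adjusted p = 0.0218) under the 2-fold minimum. Col27a1 (-0.70 ± 0.17, adjusted p = 0.047) also missed it, and Col2a1, the main cartilage fibril gene, had -0.34 ± 0.12 (adjusted p = 0.118). The second probe set of Col27a1 gave -0.92 (adjusted p = 0.0112), also under the 2-fold minimum. That of Col11a1, below background in both lineages, gave 0.03 and did not pass. Col5a3 (-0.79), Col11a2 (-0.05) and Col24a1 (-0.01) lay below background. Fibrillar collagens counted 2 of 11 called, with a median of -0.79, and the count was 4 without luminal replicate 2.

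The gap between arrays of a lineage differed from gene to gene. Over the 42 collagens the median absolute gap was 0.24 between the luminal arrays and 0.22 between the basal arrays, against 0.14 and 0.16 over all genes. The gap passed 0.5 in 10 collagens between luminal arrays and in 4 between basal arrays. Luminal replicate 2 exceeded replicate 1 by 1.92 in Col3a1, 1.83 in Col1a1, 0.98 in Col5a3, 0.90 in Col15a1, 0.87 in Col6a2 and 0.85 in Col4a1. For Col14a1 (0.36), Col17a1 (0.29), Col16a1 (0.28), Col9a3 (-0.10) and Col7a1 (-0.03) it was a small share of the difference between lineages. Between basal arrays the widest gap was 0.66, in Col9a1.

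**Figure D3:**
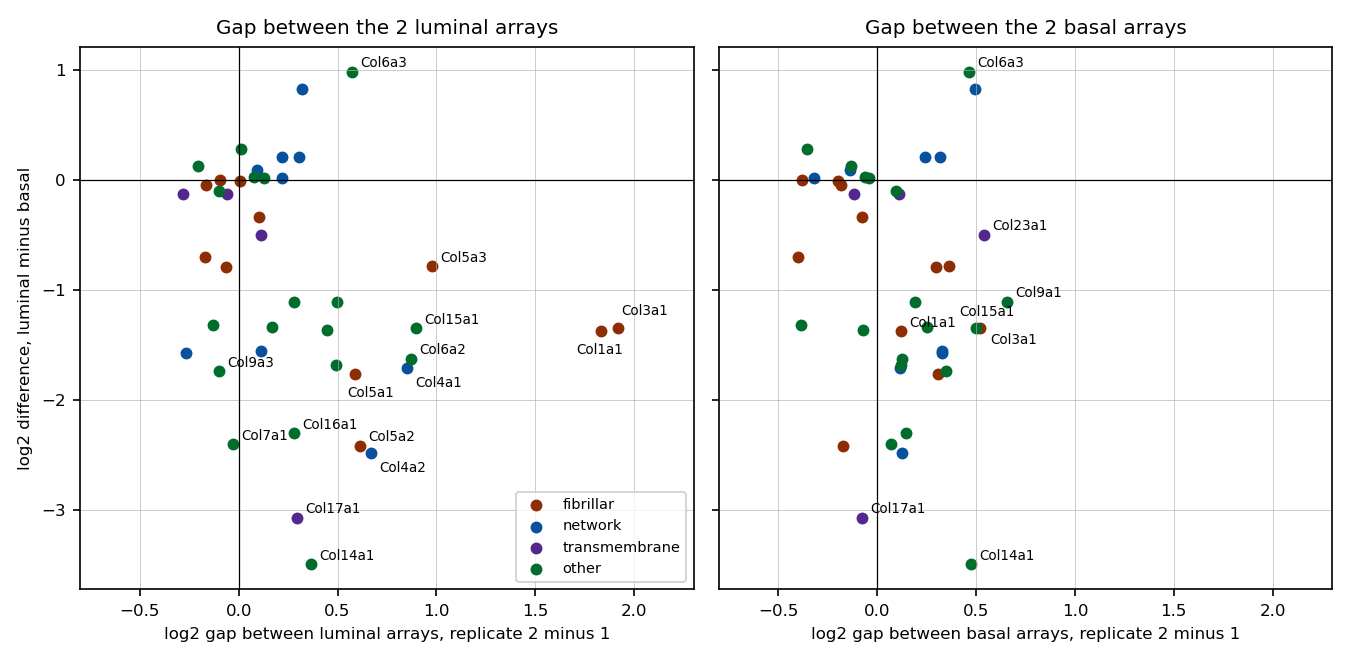
Log2 gap between the arrays of a lineage, replicate 2 minus 1 (x axis; luminal arrays in the left panel, basal arrays in the right), against the log2 difference, luminal minus basal (y axis), for the 42 collagens coloured by class. Col1a1 and Col3a1 stand apart in the luminal panel at gaps of 1.83 and 1.92, while Col17a1, Col14a1 and Col7a1 combine large lineage differences with gaps of at most 0.47.

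Some fibroblast and endothelial markers were lower in luminal cells, as the collagens were, and their part in the differences was not tested. Of 16 measured fibroblast markers, chosen without collagens, 5 were lower in luminal cells and 0 higher (median -0.72), with 10 above background. Beside this and the list counts that follow, 3.24% of all genes were lower and 3.57% higher, with a median of 0.02. Their summed intensity was 2194 to 2263 in luminal, 3556 to 4841 in basal and 2156 to 3412 in embryonic cells. Prrx1, a mesenchymal transcription factor gene (-2.26 ± 0.18), and Fbln1, a matrix glycoprotein gene (-2.25 ± 0.28), were lower in luminal cells, as were Mfap5 (-1.06 ± 0.14) and Sfrp2 (-1.68 ± 0.25). Mfap5 lay below background in both lineages and Prrx1 in luminal cells, so the sizes of these differences are not exact. Pdgfra, a defining fibroblast receptor gene, lay below background on every array (-0.09 ± 0.15), as did Fap and Pi16. The single probe set of each thus gave no reading of the lineages. Pdgfrb (-0.80 ± 0.19) missed the 2-fold minimum. Dpt (-1.47 ± 0.53) and Thy1 (-1.02 ± 0.33) did not pass either, with both luminal arrays below both basal arrays. Of 16 endothelial markers, 3 were lower in luminal cells, Ptprb, Flt1 and Esam (median -1.26), with sums of 590 to 990 in luminal, 1451 to 2321 in basal and 696 to 1077 in embryonic cells. Esam lay below background in both lineages, and Ptprb and Flt1 did in luminal cells. Pecam1 (-1.63 ± 0.43) and Cdh5 (-1.58 ± 0.49) did not pass. Markers of several cell types were higher in luminal replicate 2 than in replicate 1, the direction of the gap in Col1a1 and Col3a1: 16 of 16 endothelial (median gap 0.59), 8 of 8 leukocyte (0.53) and 12 of 16 fibroblast markers (0.23). Basal replicate 2 likewise exceeded basal replicate 1 in 15 of 16 endothelial (0.73), 7 of 8 leukocyte (0.21) and 14 of 16 fibroblast markers (0.39). The basal gap was 0.12 in Col1a1 and 0.52 in Col3a1. Of 7 basal markers, 4 were higher in luminal replicate 2 (0.43) and 6 in basal replicate 2 (0.20). Over all genes the median gap was -0.01 between luminal and 0.03 between basal arrays. Between the luminal arrays the summed fibroblast intensity ran the other way through Dcn alone. Without Dcn, a sum added after seeing the data, it was 888 in luminal replicate 1 and 1379 in luminal replicate 2, against 2671 and 3655 in basal replicates 1 and 2.

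Among the remaining marker lists few genes passed. Of 5 pericyte markers, Mcam was lower in luminal cells (-1.43, with a luminal mean below background), and Rgs5 (-1.22) and Kcnj8 (-0.62) did not pass. Notch3, named after its values were seen, did not pass either and had both luminal arrays above both basal arrays (0.69 ± 0.20, adjusted p = 0.0706). The pericyte sums were 630 to 713 in luminal, 517 to 820 in basal and 469 to 665 in embryonic cells, and without Notch3, its brightest member, 127 to 193, 256 to 437 and 175 to 211. None of 8 leukocyte markers passed, with sums of 273 and 489 in luminal replicates 1 and 2, 476 to 634 in basal and 323 to 457 in embryonic cells. Lyz2, a myeloid marker, had the widest luminal gap of that list at 2.302. Ptprc (-0.09) lay below background on every array and Cd74 had -0.80. The 2 measured adipocyte markers, Adipoq and Lep, lay below background, with sums of 19.2 to 20.3 in luminal, 20.52 to 22.01 in basal and 18.5 to 21.9 in embryonic cells. The 2 measured Schwann cell markers, Sox10 (-0.24) and Mbp (-0.71), did not pass, with sums of 312 to 371 in luminal, 389 to 490 in basal and 320 to 380 in embryonic cells.

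Of 31 measured synthesis and processing genes, 6 were lower in luminal cells and 0 higher, with a median of -0.22 against 0.02 over all genes. Loxl3, a cross-linking oxidase gene, stood at 5.53 and 5.52 in luminal cells, against 7.01 and 7.13 in basal cells (-1.55 ± 0.12, adjusted p = 0.00315), with a luminal mean below background. Plod2, which hydroxylates the lysines used in cross-links, stood at 6.57 and 6.34 in luminal cells, against 8.00 and 8.12 in basal cells (-1.60 ± 0.14, adjusted p = 0.00372). Serpinh1, the collagen chaperone gene (-1.12 ± 0.14), and Crtap, a partner of prolyl hydroxylation (-1.07 ± 0.14), were lower in luminal cells as well. The other 2, named after their values were seen, were the collagen-binding Sparc (-1.84 ± 0.45) and the cross-linking Lox (-1.16 ± 0.26), whose luminal mean lay below background. Sparc stood at 9.55 and 11.01 in luminal cells, against 12.10 and 12.14 in basal cells, with a gap of 1.46 between the luminal arrays. The prolyl hydroxylase genes P4ha2 (0.27) and P4ha3 (0.05) did not pass. The count was 2 without luminal replicate 1 and likewise 2 without basal replicate 2.

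Of 10 measured collagen receptor genes, 2 were lower in luminal cells and 0 higher (median -0.15). Ddr2, a receptor kinase for fibrillar collagen, stood at 6.77 and 6.96 in luminal cells, against 7.87 and 8.30 in basal cells (-1.22 ± 0.18, adjusted p = 0.0125). Adgrg1, an adhesion receptor for the collagen of Col3a1, stood at 8.82 and 9.12 in luminal cells, against 10.15 and 10.18 in basal cells (-1.20 ± 0.15, adjusted p = 0.00781). Ddr1, the epithelial relative of Ddr2, had 0.24 ± 0.17 and Itga1 -0.74 ± 0.28, and neither passed. The count was 0 without luminal replicate 1, 1 without luminal replicate 2 and 3 without basal replicate 1.

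Of 12 measured small leucine-rich proteoglycan genes, whose products bind collagen fibrils, 3 were lower in luminal cells and 0 higher (median -0.15). Fmod, the fibromodulin gene, stood at 5.67 and 5.82 in luminal cells, against 8.53 and 8.62 in basal cells (-2.83 ± 0.13, adjusted p = 0.00169), and Prelp at 7.49 and 7.19 in luminal cells, against 9.50 and 9.66 in basal cells (-2.24 ± 0.15, adjusted p = 0.00247). Bgn, the biglycan gene, stood at 7.25 and 8.60 in luminal cells, against 10.53 and 10.81 in basal cells (-2.75 ± 0.42, adjusted p = 0.0137), with luminal replicate 2 the higher luminal array. The luminal mean of Fmod lay below background, so its size is not exact. Dcn, the decorin gene and a classical fibroblast product that is also on the fibroblast list, stood at 10.43 and 9.67 in luminal cells, against 9.79 and 10.21 in basal cells, with overlapping arrays (0.05 ± 0.28, adjusted p = 0.945). Lum, also on both lists, had -0.64 ± 0.36 and did not pass.

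**Figure D4:**
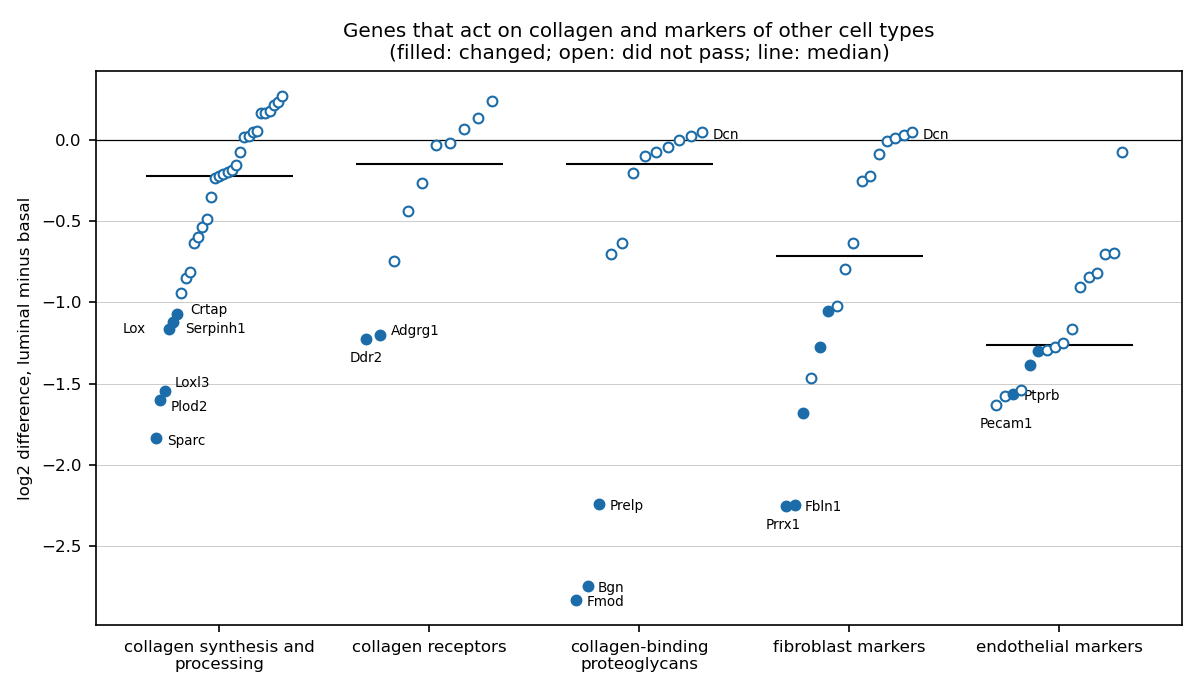
Log2 difference, luminal minus basal (y axis), of each measured gene in 3 lists of genes that act on collagen and 2 lists of markers of other cell types (x axis). Filled points changed, open points did not pass, and lines are list medians. The processing list has its median at -0.22, the proteoglycan genes Fmod, Bgn and Prelp lie below -2, and Dcn lies at 0.05.

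Set against the embryonic columns, no collagen passed in either adult lineage. In limma over all 7 arrays, 0 of 42 collagens were higher and 0 lower in basal than in embryonic cells, against 0.0702% and 0% of all genes. At an unadjusted p under 0.05 stood 16 of 42 collagens, against 1581 of all 17096 genes. In luminal against embryonic cells 0 of 42 were higher and 0 lower, against 0.0234% and 0% of all genes. Here 11 of 42 collagens stood at an unadjusted p under 0.05, against 2060 of all 17096 genes. The medians over the 42 collagens were 0.55 for basal minus embryonic and -0.33 for luminal minus embryonic, against -0.02 and 0.01 over all genes. The embryonic mean lay between the adult means for all 19 changed collagens and for 38 of 42 in all, against 89.3% of all genes and 99.9% of changed genes. Embryonic columns centred on the adult ones would give such counts whatever the cells expressed, so they do not place embryonic cells between the lineages. The distance of the embryonic mean from the mean of the 4 adult arrays was at most 0.54, in Col16a1, and 0.04 in the median, beside the small embryonic minus adult differences of the whole table given above.

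The embryonic replicates did not lie together for every collagen. Col17a1 stood at 8.02, 8.53 and 9.52 in embryonic replicates 1, 2 and 3, with replicate 3, the array of 813 cells, the highest. Col4a2 (7.97, 8.22 and 9.40) and Col18a1 (7.47, 7.49 and 8.56) were also highest in replicate 3. Col14a1 (8.66, 8.66 and 7.02), Col16a1 (8.84, 8.80 and 7.41) and Col7a1 (7.87, 8.29 and 6.82) were lowest there. For 17 of the 19 changed collagens all embryonic values lay below both basal arrays. The 19 were chosen as higher in basal cells and the embryonic columns lie near the adult mean, so that count is no separate result. Without embryonic replicate 3, 6 collagens were higher in basal and 4 were lower in luminal than in embryonic cells, so the counts of 0 did not hold without that array. The 2 arrays left tie exactly for 36.1% of genes, so their spread may be too small and these counts too high. The share of all genes called in that run is not given here. These counts therefore do not set collagens apart from other genes.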

How the data were processed

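RNA of sorted cells was amplified before hybridisation, per the labels' protocols. What the authors deposited are linear intensities per probe set, made with RMA and affy per the submitters' processing notes. Settings, and any adjustment between embryonic and adult columns, are not stated there.

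The table had 45141 rows, and 4 empty ones and 104 controls were dropped. The platform annotation gave 1 gene symbol for 28895 probe sets. The deposited intensities were turned into log2 values, which were fitted with limma 3.58.1 in R 4.3.3 (lmFit, eBayes), on the 4 adult arrays for luminal minus basal (2 residual and 3.73 prior degrees of freedom) and on all 7 arrays for contrasts with embryonic cells. Calls needed a Benjamini-Hochberg adjusted p under 0.05 over 17096 genes and a 2-fold difference. The background level is percentile 95 over 135 probe sets of organ-restricted genes. Named were all collagens that changed or lay above background and, per other list, at most 4 changed genes per direction and 2 that did not pass. Named beyond that rule were Epcam, Fap, Pi16, Dpt, Thy1, Notch3, Lyz2, Sparc and Lox. Lists covered collagen processing, receptors, proteoglycans, and basal, luminal, fibroblast, endothelial, pericyte, adipocyte, leukocyte and Schwann cell markers. The members and lists were chosen with earlier results of these data known. The fit was tested on simulated data. Promoter sequences are from RefSeq, and 33 of 42 collagens had an entry. Figures used matplotlib 3.10.9.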

Additional observations from a re-analysis of the deposited data

How the results depend on the processing

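With 2 adult arrays per lineage, precision is limited by the number of arrays, and dim genes by background. None of the 27 collagens that changed or lay above background changed direction in any alternative run by gene. The other collagens were not followed through these runs. By itself the second probe set of Col11a1, below background in both lineages, gave 0.03. The 19 collagens lower in luminal cells numbered 15 with all 7 arrays in the fit (Col4a5, Col9a1, Col15a1 and Col18a1 did not pass), 17 among genes above background, 18 by the mean of probe sets and 18 with each probe set tested by itself, an alternative added after seeing the data. The mean of probe sets moved the collagen median to -0.73, gave 1 collagen higher in luminal cells and 1 receptor gene lower, and gave 1 collagen higher in basal than embryonic cells. A 1.5-fold minimum gave 973 genes lower and 1630 higher in luminal cells, 1 collagen higher and 4 fibrillar collagens lower. No fold minimum gave 1050 and 1829 genes, and again 1 and 4. With all 7 arrays, 3 processing genes were lower. Array weights gave 2 collagens lower in luminal than embryonic cells. Leaving out 1 array in turn, which assumes that a lone array varies like the other groups, gave 287 to 704 genes lower and 232 to 929 higher in luminal cells, 14 to 19 collagens lower and 0 to 2 higher. By class it gave 2 to 4 fibrillar and 7 to 12 other collagens, 2 to 7 processing genes and 0 to 3 receptor genes. In the contrasts with embryonic cells the highest counts were 6 collagens higher in basal and 4 lower in luminal cells. They came without embryonic replicate 3, which leaves the often tied replicates 1 and 2. The cause of these shifts was not tested. The deviations of luminal and basal replicate 1 correlated at 0.08 over 17096 genes. A correlation this low cannot exclude that adult arrays of the same replicate number were paired. Most endothelial, leukocyte and fibroblast markers were higher in replicate 2 of both lineages, as given above. The replicate block left 19 collagens lower in luminal cells, and gave 5 higher in basal and 3 lower in luminal than in embryonic cells. No share of all genes is given beside the alternative counts against embryonic cells, so they do not set collagens apart from other genes.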
